A study of Homo sapiens with 14 samples.

Results

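The transcripts of 10 regulators and targets of the ATF4 branch of the integrated stress response were followed through RNA-seq of 2 human leukaemia cell lines. The genes are ATF4, ATF3, ATF5, CEBPG, DDIT3, DDIT4, TRIB3, CHAC1, SESN2 and ASNS, taken by symbol from each of 3 count tables. All 10 were present in every table, among 15025 genes in both MV4;11 tables and 15031 in the EOL-1 table, and all 10 passed the filter on low counts. The 14 libraries form 7 groups of 2, and every group, the controls included, received doxycycline at 1 µg/ml for 4 days. In MV4;11, a myelomonocytic leukaemia line with a KMT2A-AFF1 fusion, cells depleted of EZH2 by a hairpin (shEZH2) were set against a control labelled EV. In the same line, cells with guide RNA 1 or guide RNA 5 against cMyc (sgcMyc 1 and sgcMyc 5) were set against a control labelled sgEV. In EOL-1, a line from an eosinophilic leukaemia, cells with an EZH2 guide (sgEZH2) were set against their own sgEV control. EZH2 is the histone methyltransferase of Polycomb repressive complex 2, and MYC is a transcription factor of cell growth. The labels do not say whether cells were clones or pools, and they do not say that the 2 libraries of a group were separate cultures. The p-values therefore measure library spread, some or all of which may be technical.

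When cells lack amino acids, load the endoplasmic reticulum with unfolded protein or meet other stresses, 4 kinases (EIF2AK1 to EIF2AK4) phosphorylate the translation initiation factor eIF2. General translation then drops, while translation of the ATF4 messenger rises through short reading frames in its leader. ATF4 is a basic leucine zipper factor that pairs with CEBPG and other partners and turns on genes for amino acid synthesis, uptake and tRNA charging. ASNS, asparagine synthetase, is a classical target. ATF3, ATF5 and DDIT3 (CHOP) are transcription factors of the same response. TRIB3 is a pseudokinase that binds ATF4 and DDIT3 and restrains them. CHAC1 degrades glutathione, and DDIT4 (REDD1) and SESN2 both restrain the growth kinase complex mTORC1. Much of the control of ATF4 lies in translation, which transcript counts do not measure.

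ATF4 and its C/EBP partners are known to bind a composite element with the letters TGATGNAA, and MYC with its partner MAX binds the E-box CACGTG. Both words were searched on both strands in RefSeq promoter windows of GRCh38.p14, from 250 bases before to 50 after each annotated start, for the 10 genes. TGATGNAA stood in the windows of 4 of the 10 genes, against 4.46% of all 27305 genes, and these stretches are shown because they hold the word that ATF4 is known for. Each is written 5′ to 3′ on the strand of its gene, with the word in capitals.

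ASNS: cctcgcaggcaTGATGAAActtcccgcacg
ATF3: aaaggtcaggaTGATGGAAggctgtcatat
CEBPG: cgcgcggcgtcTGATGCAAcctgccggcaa
CHAC1: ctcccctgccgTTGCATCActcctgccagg

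The ASNS stretch lies at chr7:97872458-97872487 on the minus strand, and its word begins 68 bases before the start. The ATF3 stretch lies at chr1:212565205-212565234, 191 bases before the start. The CEBPG stretch lies at chr19:33374060-33374089, 42 bases before. The CHAC1 stretch lies at chr15:40953251-40953280, 209 bases before, and holds the word on the opposite strand. ASNS, ATF3 and CEBPG have 2 windows each, and the word stood in 1 of the 2. The distance is to the start of that window. Per GENCODE 29, the ASNS and CHAC1 stretches fall in the UTR of other, longer transcripts, the CEBPG stretch in an intron, and the ATF3 stretch before every transcript. The E-box stood in the windows of 1 of the 10 genes, ATF4, against 8.77% of all genes. It is shown as the only E-box match in these windows, and 1 of 10 genes is close to the share of all genes.

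ATF4: gaggagacggtCACGTGgtcgcggcgga

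This stretch lies at chr22:39520466-39520493, 82 or 85 bases before the ATF4 starts, and reaches into the UTR of another transcript. The word reads the same on both strands. A match of letters is a description and shows no binding, and absence of the letters says nothing about binding outside these windows.

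Libraries held 15034533 to 16274568 gene counts in the shEZH2 and EV groups, 13313052 to 15043385 in the sgcMyc and sgEV groups, and 24574102 to 30256823 in EOL-1. Levels below are gene counts scaled to the library total (CPM), put on one scale over all 14 libraries, while each test was run on counts within a table or in a joint fit. EZH2 transcript averaged 9.42 ± 0.034 CPM with shEZH2 against 72.3 ± 1.7 CPM with EV, and 29.01 ± 1.2 CPM with sgEZH2 against 76.5 ± 0.24 CPM with sgEV in EOL-1 (SD, n = 2 each). MYC transcript was higher with the guides, at 843 ± 5.3 CPM with sgcMyc 1 and 794 ± 2.1 CPM with sgcMyc 5 against 637 ± 2.4 CPM with sgEV (SD, n = 2 each), so the transcript level does not check the edit. With shEZH2 it averaged 664 ± 5.3 CPM against 561 ± 7.1 CPM with EV (SD, n = 2 each). The share of mitochondrially encoded transcripts ran from 2.79 to 2.80% with shEZH2 against 2.18 to 2.23% with EV, from 3.14 to 3.44% with the MYC guides against 2.41 to 2.47% with sgEV, and from 1.14 to 1.15% with sgEZH2 against 1.05 to 1.06% in EOL-1 sgEV. Its part in the results was not tested. All 8 myeloid markers examined had a row in both lines. SPI1, CD33, FLT3, CEBPA and PTPRC stood at 64.4 CPM or more in every library. KIT stood at 0.180 to 4.997 CPM in MV4;11 and 8.54 to 10.4 CPM in EOL-1, MPO at 4.14 to 11.9 CPM in MV4;11, and CSF3R at 3.69 to 13.3 CPM in EOL-1. Of 6 eosinophil markers, EOL-1 had a row for GATA2 alone, at 1.602 to 1.93 CPM, so no row was present for 5 of the 6. Among markers of other cells, PECAM1, which myeloid cells also carry, stood at 74.9 to 303 CPM and the keratin gene KRT18 at 0.134 to 11.4 CPM in MV4;11. PECAM1 alone had a row in EOL-1, at 9.76 to 17.9 CPM. In bulk RNA, fewer cells of a kind and less RNA per cell cannot be told apart.

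The level of each gene differed widely between groups. The sgEV group of MV4;11 had the highest mean of all 7 groups for 9 of the 10 genes. DDIT4 is the exception, with its highest level in EOL-1. At the other end, the sgcMyc groups were lowest for ATF4, ASNS and DDIT4, the shEZH2 group for ATF3, CEBPG, CHAC1 and SESN2, and the EOL-1 groups for ATF5, DDIT3 and TRIB3. DDIT3 had the least clear order, since the EV, sgcMyc 1, shEZH2 and sgcMyc 5 groups each overlapped the next below. EOL-1 sgEZH2 overlapped sgcMyc 5 above it and was apart from EOL-1 sgEV. The libraries of sgcMyc 5 and sgcMyc 1 were apart in ATF5, CEBPG and SESN2, 3 of the 10 genes, where 36.4% of all 13948 tested genes were apart.

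**Figure D1:**
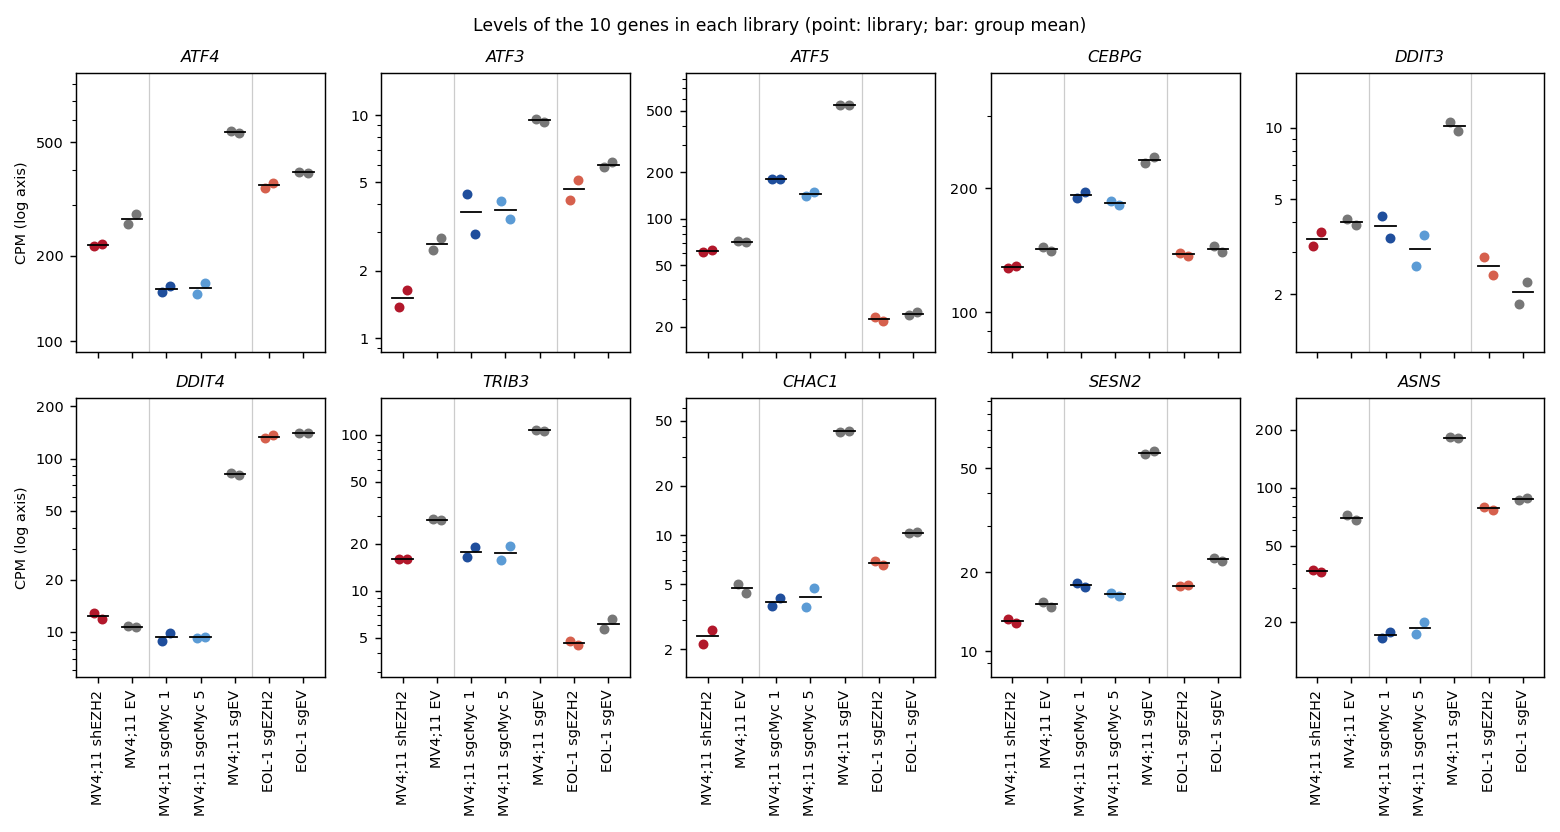
Level of each of the 10 genes in every library, in CPM on a log axis, with a bar at the group mean; in each pair or trio of groups the control is the grey group at the right. The MV4;11 sgEV libraries lie far above the MV4;11 EV libraries in most panels, and both sgcMyc groups lie below sgEV in every panel.

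With the EZH2 hairpin in MV4;11, 7 of the 10 genes fell and none rose, while 14.2% of all 13591 tested genes fell and 13.4% rose. The changes were modest, with a median log2 fold change of -0.26 over the 10 genes against 0.00 over all genes. CHAC1, ASNS and TRIB3 stood at 50.7 to 55.7% of their EV level, ATF4 at 81.1%, and DDIT3, DDIT4 and SESN2 did not pass the test.

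ATF4 transcript stood at 216 and 219 CPM with shEZH2, against 257 and 279 CPM with EV. The groups did not overlap. Its log2 fold change was -0.30 ± 0.05 (SE, adjusted p = 0.00059, edgeR). ASNS stood at 37.1 and 36.3 CPM with shEZH2, against 71.8 and 67.5 CPM with EV. Both shEZH2 libraries lay far below both EV libraries, and the log2 fold change was -0.92 ± 0.06 (SE, adjusted p = 1.1e-06). TRIB3, which restrains ATF4, measured 15.9 and 16.0 CPM with shEZH2, against 28.99 and 28.3 CPM with EV. This was a log2 fold change of -0.84 ± 0.08 (SE, adjusted p = 1.5e-05). These 3 calls held under every alternative tried, including DESeq2, spike-in scaling and the removal of any library.

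CHAC1, the glutathione-degrading enzyme, had 2.17 and 2.62 CPM with shEZH2, against 5.02 and 4.43 CPM with EV. The groups did not overlap and the log2 fold change was -0.98 ± 0.20 (SE, adjusted p = 0.0044), but DESeq2 gave an adjusted p of 0.077. On the log2 values of the authors, limma gave smaller changes of -0.39 for CHAC1 (adjusted p = 0.0041) and -0.25 for ATF3 (adjusted p = 0.040). ATF3 had 1.38 and 1.65 CPM with shEZH2, against 2.48 and 2.82 CPM with EV, the lowest counts among the 10 genes. Its log2 fold change of -0.80 ± 0.27 (SE, adjusted p = 0.044) lost its call with any library left out, where the adjusted p ran from 0.053 to 0.21, and with DESeq2 at 0.36. ATF5 measured 61.2 and 62.4 CPM with shEZH2, against 71.3 and 70.8 CPM with EV. CEBPG, the dimer partner, measured 127.9 and 129.6 CPM with shEZH2, against 144 and 141 CPM with EV. Their log2 fold changes were -0.20 ± 0.05 (adjusted p = 0.015) and -0.15 ± 0.04 (adjusted p = 0.029), each with its SE. Both calls were lost without either shEZH2 library, with adjusted p of 0.15 and 0.085 for ATF5 and 0.25 and 0.18 for CEBPG, and both were lost with DESeq2 and with spike-in scaling.

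DDIT4 was the one gene with a positive estimate, at 12.8 and 11.9 CPM with shEZH2 against 10.8 and 10.6 CPM with EV (log2 fold change 0.20 ± 0.11 SE, adjusted p = 0.19). SESN2 had 13.4 and 12.8 CPM with shEZH2 against 15.5 and 14.8 CPM with EV, a log2 fold change of -0.21 ± 0.10 (SE, adjusted p = 0.14). DDIT3 had 3.19 and 3.66 CPM with shEZH2 against 4.12 and 3.91 CPM with EV, a log2 fold change of -0.23 ± 0.19 (SE, adjusted p = 0.41). None of these 3 differences passed the test. The libraries of all 10 genes did not overlap between shEZH2 and EV, as was so for 63.8% of all tested genes. Over all genes, 48.5% of the calls were higher with shEZH2 under TMM scaling and 36.4% when libraries were scaled to spike-in RNA. Spike-in scaling left 4 of the 10 genes called, all lower (ATF4, TRIB3, CHAC1 and ASNS). The summed levels of the marker lists also differed, at 87.0 to 87.4 CPM with shEZH2 against at least 121.7 CPM with EV for other cells, 1120 to 1139 CPM against 1299 to 1303 CPM for myeloid cells, and 0.180 to 0.427 CPM against 0.605 to 0.641 CPM for eosinophils. The eosinophil sums come from 3 genes with a row and lie near the floor. PECAM1, at 74.9 CPM or more in every MV4;11 library, makes up most of the other-cell sums. The part of the marker lists in the results was not tested.

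In EOL-1, the EZH2 guide lowered 5 of the 10 genes and raised none, where 11.8% of all 13890 tested genes fell and 15.1% rose. The median log2 fold change was -0.15 over the 10 genes and 0.01 over all genes. CHAC1 had the largest decrease, and ASNS stood at 89.3% of the control. Myeloid markers summed to 1094 to 1104 CPM with sgEZH2 against 913 to 931 CPM with sgEV. PECAM1, the one other-cell marker with a row in EOL-1, stood at 17.5 to 17.9 CPM with sgEZH2 against 9.76 to 10.3 CPM with sgEV. Their part in the results was not tested.

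CHAC1 measured 6.92 and 6.59 CPM with sgEZH2, against 10.3 and 10.4 CPM with sgEV. No library overlapped, the sgEZH2 mean was 65.3% of the sgEV mean, and the log2 fold change was -0.60 ± 0.10 (SE, adjusted p = 0.00029). SESN2, which senses leucine and restrains mTORC1, measured 17.8 CPM in both sgEZH2 libraries, against 22.8 and 22.2 CPM with sgEV. Its log2 fold change of -0.32 ± 0.07 (SE, adjusted p = 0.0020) had an adjusted p of 0.062 with DESeq2. ATF4 measured 344 and 361 CPM with sgEZH2, against 394 and 389.6 CPM with sgEV. The log2 fold change was -0.14 ± 0.03 (SE, adjusted p = 0.0032), and the adjusted p was 0.067 without sgEV replicate 1.

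ASNS had 79.2 and 76.9 CPM with sgEZH2, against 86.2 and 88.6 CPM with sgEV. Its log2 fold change was -0.15 ± 0.04 (SE, adjusted p = 0.012), with an adjusted p of 0.16 without sgEV replicate 2 and 0.10 with DESeq2. TRIB3 had 4.75 and 4.49 CPM with sgEZH2, against 5.67 and 6.64 CPM with sgEV. The log2 fold change of -0.40 ± 0.14 (SE, adjusted p = 0.036) missed the threshold with DESeq2 (0.33) and without sgEV replicate 2 (0.33), sgEZH2 replicate 1 (0.051) or sgEZH2 replicate 2 (0.11). Of these 5 decreases, that of CHAC1 kept its call under every alternative tried, which did not include spike-in scaling. On the authors' log2 values limma gave smaller changes of -0.32 for CHAC1 (adjusted p = 0.00025) and -0.18 for TRIB3 (adjusted p = 0.032). ATF3 had 4.18 and 5.12 CPM with sgEZH2, against 5.83 and 6.15 CPM with sgEV, and passed the test only without sgEZH2 replicate 2 (adjusted p = 0.026, against 0.068 with all libraries). ATF5 averaged 22.5 ± 0.90 CPM with sgEZH2 and 24.3 ± 0.84 CPM with sgEV, CEBPG 138 ± 1.5 and 142 ± 3.4 CPM, and DDIT4 133.9 ± 2.6 and 139.7 ± 0.045 CPM, in the same order (SD, n = 2 each). DDIT3 was low, at 2.86 and 2.40 CPM with sgEZH2 against 1.82 and 2.24 CPM with sgEV. None of these 4 passed the test, with adjusted p from 0.23 to 0.62.

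Whether EZH2 loss moved the genes differently in the 2 lines was tested in one fit of all 8 libraries, as the change in MV4;11 minus the change in EOL-1. TRIB3 and ASNS fell further in MV4;11, and the other 8 did not pass, while 26.5% of all 13543 tested genes differed in either direction. For ASNS the difference of log2 fold changes was -0.76 ± 0.07 (SE, adjusted p = 1.2e-06). It held under every alternative run for this contrast, which did not include limma or spike-in scaling. For TRIB3 it was -0.43 ± 0.15 (SE, adjusted p = 0.044) and was lost with DESeq2 (adjusted p = 0.30) and in 7 of 8 fits that left a library out. For ATF4 it was -0.15 ± 0.06 (SE, adjusted p = 0.059), and it passed without EV replicate 1 (adjusted p = 0.0028), without sgEZH2 replicate 1 (0.035), with a stricter count filter (0.032) and with replicate number as a block (0.029). For DDIT4 it was 0.26 ± 0.10 (SE, adjusted p = 0.063). EZH2 transcript stood at 13.0% of its control with the hairpin in MV4;11 and at 37.9% with the guide in EOL-1. For a guide the transcript level does not check the edit, so these values do not give the depth of depletion on one measure. Line, reagent and depth of depletion cannot be told apart in this contrast.

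With either MYC guide in MV4;11, all 10 genes fell against sgEV, where 16.0% of 13948 tested genes fell and 16.2% rose with guide 1, and 15.5% fell and 15.7% rose with guide 5. Decreases of at least 2-fold were called for 9 of the 10 genes with each guide, where the share of all tested genes was 2.60% with guide 1 and 2.67% with guide 5. The median log2 fold change over the 10 genes was -1.76 with guide 1 and -1.87 with guide 5, against 0.00 over all genes for both. CHAC1, ASNS and DDIT4 fell to 9.01 to 11.5% of sgEV, and CEBPG was the gene that fell least. Both guides were set against the same sgEV libraries.

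ATF4 measured 149 and 156 CPM with guide 1 and 146 and 159.9 CPM with guide 5, against 546 and 539.6 CPM with sgEV. The guide means were 28.1% and 28.2% of the sgEV mean, with no overlap. The log2 fold change was -1.84 ± 0.05 with guide 1 (SE, adjusted p = 8.5e-11) and -1.83 ± 0.05 with guide 5 (SE, adjusted p = 1.3e-10). ASNS measured 16.6 and 17.7 CPM with guide 1 and 17.3 and 19.99 CPM with guide 5, against 183 and 182 CPM with sgEV. Its mean fell to 9.39% of sgEV with guide 1 and 10.2% with guide 5, and the log2 fold changes were -3.42 ± 0.07 (adjusted p = 4.6e-12) and -3.29 ± 0.07 (adjusted p = 6.8e-12), each with its SE.

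CHAC1 stood at 3.67 and 4.09 CPM with guide 1 and 3.64 and 4.74 CPM with guide 5, against 42.9 and 43.2 CPM with sgEV. The log2 fold change was -3.47 ± 0.12 with guide 1 and -3.36 ± 0.12 with guide 5 (SE). DDIT4, the mTORC1 inhibitor, stood at 8.82 and 9.80 CPM with guide 1 and 9.28 and 9.40 CPM with guide 5, against 82.4 and 80.3 CPM with sgEV. Its log2 fold change was -3.13 ± 0.08 with guide 1 and -3.12 ± 0.08 with guide 5 (SE). TRIB3 stood at 16.6 and 19.1 CPM with guide 1 and 15.7 and 19.4 CPM with guide 5, against 108 and 106 CPM with sgEV, with log2 fold changes of -2.59 ± 0.09 and -2.61 ± 0.09 (SE). SESN2 stood at 18.2 and 17.7 CPM with guide 1 and 16.8 and 16.3 CPM with guide 5, against 56.6 and 57.8 CPM with sgEV, with log2 fold changes of -1.68 ± 0.07 and -1.79 ± 0.07 (SE). Adjusted p-values of these 4 genes ran from 5.4e-11 to 3.9e-09.

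Among the other transcription factors, ATF5 stood at 182 and 179.6 CPM with guide 1 and 139.9 and 149 CPM with guide 5, against 548 and 547 CPM with sgEV. ATF3 stood at 4.41 and 2.92 CPM with guide 1 and 4.12 and 3.41 CPM with guide 5, against 9.64 and 9.35 CPM with sgEV. DDIT3 stood at 4.28 and 3.44 CPM with guide 1 and 2.61 and 3.55 CPM with guide 5, against 10.6 and 9.72 CPM with sgEV. No guide library reached the sgEV level in any of the 3 genes. The log2 fold changes with guide 1 and guide 5 were -1.60 ± 0.05 and -1.92 ± 0.05 for ATF5, -1.38 ± 0.19 and -1.33 ± 0.19 for ATF3, and -1.40 ± 0.18 and -1.72 ± 0.19 for DDIT3 (SE, adjusted p at most 0.00023). CEBPG stood at 189 and 195 CPM with guide 1 and 186 and 182 CPM with guide 5, against 230.0 and 238 CPM with sgEV. Its log2 fold changes were -0.29 ± 0.05 (adjusted p = 0.00037) and -0.35 ± 0.05 (adjusted p = 0.00010), each with its SE.

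Scaling to spike-in RNA moved the median log2 fold change of all genes to 0.08 with guide 1 and 0.15 with guide 5. The share of calls that were higher was then 67.3% with guide 1 and 78.3% with guide 5, where TMM scaling gave 50.3% for guide 5 and 50.2% for guide 1. Under it CEBPG was no longer called, with log2 fold changes of -0.20 for both guides and adjusted p of 0.11 for both, and the other 9 genes stayed lower with both guides. On the authors' log2 values limma called the same decreases, with smaller changes of -2.20 and -2.15 for CHAC1, -0.68 and -0.66 for ATF3 and -0.70 and -0.83 for DDIT3 with guide 1 and guide 5. The summed level of the 6 eosinophil markers, 3 of which had a row, moved with the guides as well, at 9.41 to 11.0 CPM with the guides against 22.03 to 22.8 CPM with sgEV. Of its genes CCR3 stayed at or below 0.935 CPM and PRG2 at or below 1.67 CPM in every MV4;11 library, and IL5RA, CLC and EPX had no row. The other-cell markers summed to 278 to 304 CPM with the guides against 178.7 to 180.0 CPM with sgEV, and the myeloid markers to 1559 to 1626 CPM against 1681 to 1692 CPM. The part of these lists in the results was not tested.

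Guide 5 and guide 1 were also compared with each other. ATF5 was the one gene of the 10 that differed, lower with guide 5 by a log2 difference of -0.32 ± 0.05 (SE, adjusted p = 0.014), where 0.409% of all tested genes differed in either direction. The call was lost under spike-in scaling (adjusted p = 0.57), without either guide 1 library (0.27 and 0.22) and without either sgEV library (0.091 and 0.10), the last of which enter through the estimate of spread. For the other 9 genes the difference lay between -0.32 ± 0.21 (DDIT3) and 0.13 ± 0.09 (ASNS) on the log2 scale (SE), with adjusted p from 0.75 to 0.99.

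**Figure D2:**
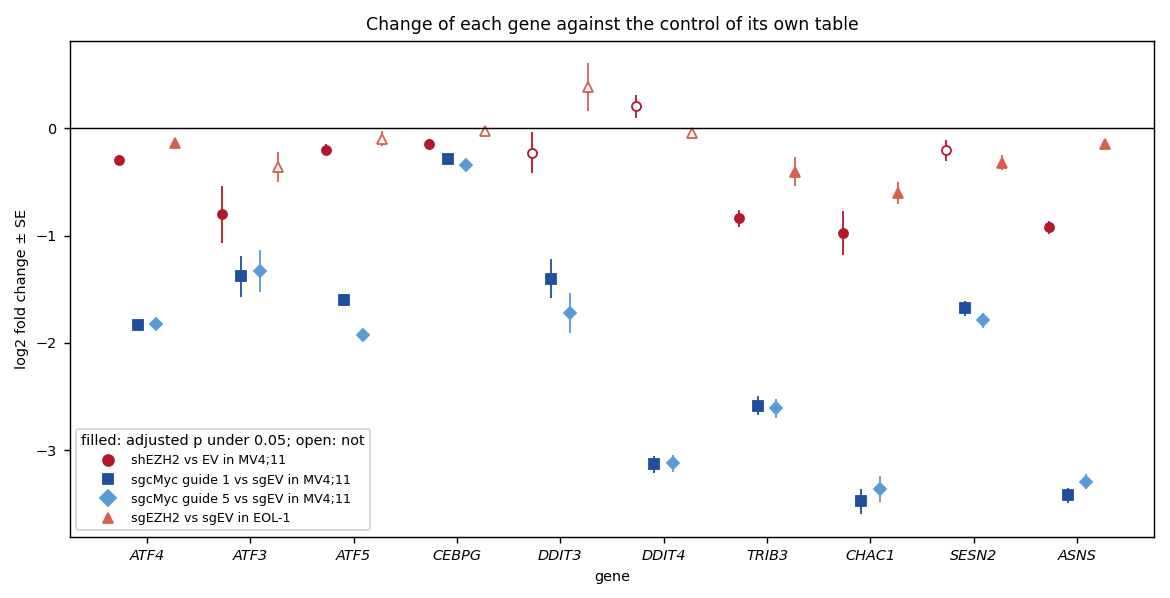
Log2 fold change of each gene against the control of its own table, with bars of 1 SE, filled where the adjusted p was under 0.05 and open where it was not. For every gene except CEBPG and ATF3, the MYC guides (squares and diamonds) lie well below shEZH2 (circles) and sgEZH2 (triangles). Guide 5 minus guide 1 was -0.32 for both ATF5 and DDIT3, and only the ATF5 difference was called.

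The size of the decreases with shEZH2 and with the MYC guides was compared in one fit of the 10 MV4;11 libraries, as the shEZH2 change against EV minus the guide change against sgEV. Of the 10 genes, 8 were called higher (a smaller decrease with shEZH2) when guide 1 was subtracted, against 13.8% of all 14433 tested genes, and 9 when guide 5 was subtracted, against 13.5%. ATF3 passed neither test, at 0.57 ± 0.33 with guide 1 and 0.52 ± 0.33 with guide 5 on the log2 scale (SE, adjusted p = 0.21 and 0.26). CEBPG differed from guide 5 by 0.19 ± 0.06 (SE, adjusted p = 0.024) and from guide 1 by 0.14 ± 0.06 (SE, adjusted p = 0.095), and under spike-in scaling from neither. The guide 5 call was also lost with DESeq2 (adjusted p = 0.12) and in 5 of 10 fits that left a library out, and that of DDIT3 against guide 1 with DESeq2 (adjusted p = 0.068). DDIT4 had the largest difference, 3.33 ± 0.13 with guide 1 and 3.32 ± 0.13 with guide 5 (SE), followed by CHAC1 and ASNS at 2.36 to 2.49. Scaling to spike-in RNA moved the median of all genes to -0.12 with guide 1 and -0.19 with guide 5, and the share of calls that were higher was then 25.7% and 18.1%, where TMM gave 47.0% and 45.5%. These contrasts contain both controls, which differed from each other. sgEV lay above EV by log2 fold changes of 2.90 for DDIT4, 3.17 for CHAC1 and 1.37 for ASNS. CHAC1 averaged 2.39 CPM with shEZH2, below its 3.88 CPM with guide 1 and 4.19 CPM with guide 5. DDIT4 averaged 12.35 CPM against 9.31 and 9.34 CPM, and ASNS 36.7 CPM against 17.1 and 18.7 CPM, in the same order. A positive difference here is thus no measure of a higher level with shEZH2.

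After these levels were seen, the MV4;11 controls were set against each other. All 10 genes were higher in sgEV than in EV, against 25.9% of 14433 tested genes called higher, with a median log2 fold change of 1.85 over the 10 genes and 0.01 over all genes. CHAC1 averaged 43.1 ± 0.22 CPM with sgEV and 4.72 ± 0.42 CPM with EV, ATF5 548 ± 0.24 and 71.0 ± 0.35 CPM, and DDIT4 81.3 ± 1.5 and 10.7 ± 0.13 CPM, in the same order (SD, n = 2 each). The log2 fold changes were 3.17 ± 0.12 for CHAC1, 2.93 ± 0.04 for ATF5, 2.90 ± 0.08 for DDIT4, 1.90 ± 0.07 for SESN2, 1.88 ± 0.07 for TRIB3 and 1.82 ± 0.20 for ATF3 (SE). ASNS followed at 1.37 ± 0.05, DDIT3 at 1.32 ± 0.17, ATF4 at 1.00 ± 0.05 and CEBPG at 0.69 ± 0.04 (SE), and the adjusted p was at most 1.3e-05 for all 10 genes. The call of all 10 held under every alternative, spike-in scaling included. Eosinophil markers summed to 22.03 to 22.8 CPM with sgEV against 0.605 to 0.641 CPM with EV, other-cell markers to 178.7 to 180.0 CPM against at least 121.7 CPM, and myeloid markers to 1681 to 1692 CPM against 1299 to 1303 CPM. Their part in the results was not tested. The 2 controls stand in separate tables, the labels give no dates, and vector, culture and run cannot be told apart.

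Measured against EV in place of sgEV, also a choice made after the levels were seen, the MYC guides gave another picture. Of the 10 genes, 3 were lower and 3 higher with guide 1, where 25.3% of all genes were lower and 26.6% higher. With guide 5, 3 were lower and 2 higher, where 23.1% were lower and 25.0% higher. ATF4, TRIB3 and ASNS stayed lower with both guides. ASNS had log2 fold changes of -2.05 ± 0.07 with guide 1 and -1.92 ± 0.07 with guide 5 (SE), ATF4 -0.84 ± 0.05 and -0.82 ± 0.05, and TRIB3 -0.70 ± 0.09 and -0.72 ± 0.09. ATF5 was higher with both guides, at 1.33 ± 0.04 and 1.01 ± 0.05 (SE), and CEBPG at 0.41 ± 0.04 and 0.36 ± 0.04. SESN2 was higher with guide 1 (0.22 ± 0.08 SE, adjusted p = 0.032) and did not pass with guide 5 (0.11 ± 0.08 SE, adjusted p = 0.32). CHAC1, DDIT3, DDIT4 and ATF3 did not pass with either guide, with adjusted p from 0.084 to 0.75. Under spike-in scaling, which moved the median of all genes to 0.10 with guide 1 and 0.17 with guide 5, ATF3 was called higher with guide 5 (0.67, adjusted p = 0.047), and the 3 decreases and the increases of ATF5 and CEBPG held. The share of calls that were higher was then 65.9% and 76.9%, where TMM gave 51.3% and 52.0%.

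**Figure D3:**
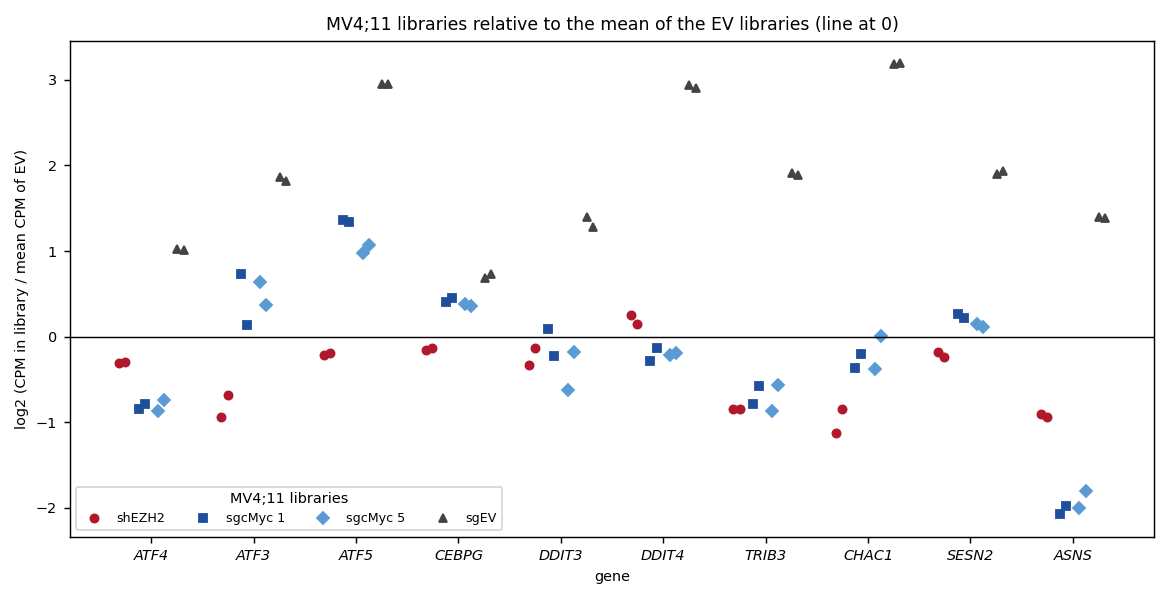
Each MV4;11 library of the other 4 groups relative to the mean of the EV libraries, as log2 of the ratio of CPM, with a line at 0 for EV. The sgEV triangles lie above the line for all 10 genes. All sgcMyc libraries lie below it for ATF4, TRIB3, ASNS and DDIT4 and above it for ATF5, CEBPG, ATF3 and SESN2. Against EV, DDIT4 and ATF3 were called with neither guide and SESN2 with guide 1 only.

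Genes around the 10 were then counted from 7 lists. Over all tested genes, 16.0% fell and 16.2% rose with guide 1, and 15.5% fell and 15.7% rose with guide 5. With shEZH2, 14.2% fell and 13.4% rose, and in EOL-1, 11.8% fell and 15.1% rose. The counts below are set beside these shares. A list of 19 genes holds eIF2 kinases, eIF2 and eIF2B subunits, eIF2 phosphatase regulators, and also EIF2A, GCN1L1, IMPACT, OMA1 and KIAA0141. EIF2A does not encode an eIF2 subunit, and the subunit gene EIF2S1 was not called with shEZH2 or in EOL-1. With shEZH2, 1 of 19 rose and 2 fell, where 13.4% of all genes rose and 14.2% fell, namely EIF2A (0.21), EIF2S2 (-0.17) and EIF2B1 (-0.17) as log2 fold changes. With guide 1, 8 of 19 fell, among them the eIF2 subunit genes EIF2S3 (-0.69 ± 0.04 SE) and EIF2S2 (-0.71 ± 0.06 SE), the kinase EIF2AK2 (-0.76 ± 0.08 SE) and the phosphatase regulator PPP1R15A (-0.53 ± 0.06 SE), and with guide 5, 7 of 19. In EOL-1, 1 of 19 rose (EIF2A, 0.17) and 4 fell (EIF2AK1, EIF2AK2, EIF2B3 and GCN1L1, from -0.12 to -0.34), where 15.1% of all genes rose and 11.8% fell. The kinase genes EIF2AK3 (PERK) and EIF2AK4 (GCN2) were called in 1 of these 8 tests, EIF2AK3 with guide 5 at -0.28 ± 0.09 (SE, adjusted p = 0.037).

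Amino acid synthesis genes fell with the guides in 12 of 14 cases for each guide, with medians of -1.48 for guide 1 and -1.51 for guide 5. PHGDH, the first enzyme of serine synthesis, stood at 27.5 and 30.2 CPM with guide 1 and 32.4 and 35.7 CPM with guide 5, against 401 and 408 CPM with sgEV. Its log2 fold changes were -3.81 ± 0.06 and -3.57 ± 0.06 (SE). With guide 1 and guide 5 in that order, PSAT1, which acts after it, changed by -2.80 ± 0.05 and -2.67 ± 0.05, CBS of cysteine synthesis by -3.69 ± 0.11 and -3.63 ± 0.11, and GPT2 of alanine synthesis by -1.68 ± 0.05 and -1.61 ± 0.05 on the log2 scale (SE). With shEZH2, 7 of 14 fell and 1 rose, PSAT1 at -0.84 ± 0.04, PHGDH at -0.95 ± 0.05 and PSPH at -0.38 ± 0.07 among the lower and ALDH18A1 of proline synthesis at 0.47 ± 0.05 (SE). In EOL-1, 9 of 13 fell and none rose, GPT2 at -0.55 ± 0.03, PSAT1 at -0.45 ± 0.04, CBS at -0.64 ± 0.06 and PSPH at -0.36 ± 0.05 among them (SE). CBS has a near-identical copy in some genome builds, and whether this bears on counts made with hg19 was not checked.

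The 13 genes of tRNA synthetases and tRNA export all fell with both guides, with medians of -1.02 for guide 1 and -1.03 for guide 5. GARS changed by -1.69 ± 0.05 and -1.59 ± 0.05, and WARS by -1.34 ± 0.04 and -1.42 ± 0.04 on the log2 scale (SE), for guide 1 and guide 5 in that order. With shEZH2, 10 of 13 fell and none rose, AARS at -0.45 ± 0.04, YARS at -0.41 ± 0.04, CARS at -0.39 ± 0.05 and NARS at -0.28 ± 0.04 among them (SE). In EOL-1, 10 of 13 fell and none rose, with MARS at -0.23 ± 0.03 and YARS at -0.21 ± 0.03 (SE). The median of the list was -0.20 with shEZH2 and -0.15 in EOL-1.

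Of 12 amino acid transporter genes, 10 fell and 1 rose (SLC36A4) with each guide. SLC7A5 and SLC3A2, which form the large neutral amino acid exchanger, changed by -1.87 ± 0.05 and -1.46 ± 0.05 with guide 1 and by -1.70 ± 0.05 and -1.43 ± 0.05 with guide 5 on the log2 scale (SE). With shEZH2, 5 of 12 fell (SLC7A11, SLC38A1, SLC38A2, SLC1A5 and SLC6A9) and 2 rose. The cystine carrier SLC7A11 changed by -1.60 ± 0.15 and the glutamine carrier SLC38A1 by -2.14 ± 0.21, while SLC7A5 rose by 0.27 ± 0.04 and SLC43A1 by 0.43 ± 0.05 (SE). In EOL-1, 6 of 11 fell, with SLC7A5 at -0.24 ± 0.03 (SE), and 1 rose, SLC7A11 at 0.20 ± 0.07 (SE). The change of SLC7A5 was thus positive with shEZH2 and negative with sgEZH2, and the difference of 0.52 ± 0.05 passed its own test (SE, adjusted p = 1.8e-06).

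Other described ATF4 targets had a median log2 fold change of -0.35 with guide 1, -0.43 with guide 5, -0.05 with shEZH2 and 0.09 in EOL-1, with 10 of 14 lower and none higher with guide 1, 11 lower and 2 higher with guide 5 (SQSTM1 and ATG5), 4 lower and 2 higher of 13 with shEZH2, and 4 lower and 2 higher of 14 in EOL-1. VEGFA fell in all 4 comparisons, with changes of -2.002 ± 0.07 with guide 1, -2.15 ± 0.07 with guide 5, -0.98 ± 0.09 with shEZH2 and -0.48 ± 0.04 with sgEZH2 on the log2 scale (SE). The death receptor gene TNFRSF10B rose by 0.56 ± 0.05 and BBC3 (PUMA) by 0.33 ± 0.11 with shEZH2 (SE). HERPUD1, a degradation factor of the endoplasmic reticulum, rose by 0.65 ± 0.04 in EOL-1 (SE), as did STC2, which had 0.885 and 0.445 CPM with sgEZH2 against 0.198 and 0.142 CPM with sgEV. EIF4EBP1 and LONP1 fell in all 4 comparisons.

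The XBP1 and ATF6 arms of the unfolded protein response had more increases than decreases with the guides, where 11 of 19 genes rose and 3 fell with guide 1 (XBP1, ERN1 and EDEM1), and 12 rose and 4 fell with guide 5 (the same 3 and ATF6B). The chaperone genes CALR, HSP90B1 and PDIA4 rose by 0.58 ± 0.05, 0.42 ± 0.04 and 0.36 ± 0.05 with guide 1 (SE). XBP1 changed by -0.73 ± 0.05 with guide 1 and -0.78 ± 0.05 with guide 5 on the log2 scale (SE). With shEZH2, 2 rose (HYOU1 and CALR) and 2 fell (XBP1 and CRELD2). In EOL-1, 6 rose, HSPA5 by 0.32 ± 0.03 and HSP90B1 by 0.28 ± 0.03 among them (SE), and EDEM1 fell. Against EV, 11 of the 19 genes were higher and 1 lower with each guide. Of all genes, 26.6% were higher and 25.3% lower with guide 1 against EV, and 25.0% and 23.1% with guide 5.

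Relatives of the 10 genes did not move as one group. With guide 1, 7 of 23 rose and 6 fell, and with guide 5, 6 rose and 6 fell. Of all genes, 16.2% rose and 16.0% fell with guide 1, and 15.7% and 15.5% with guide 5. With shEZH2, 6 rose and 5 fell (CREB3, CREB3L2, CEBPB, JDP2 and JUND), and in EOL-1, 6 of 24 rose and 2 fell (CREBZF and JDP2). Of all genes, 13.4% rose and 14.2% fell with shEZH2, and 15.1% and 11.8% in EOL-1. JDP2, a repressor that pairs with ATF and JUN proteins, changed by -1.90 ± 0.09 with guide 1, -2.04 ± 0.09 with guide 5, -1.33 ± 0.16 with shEZH2 and -0.32 ± 0.07 in EOL-1 on the log2 scale (SE). SESN2 has relatives SESN1 and SESN3, which rose in all 4 comparisons. SESN3 rose by 1.46 ± 0.14 with guide 1, 1.18 ± 0.14 with guide 5, 1.78 ± 0.11 with shEZH2 and 0.89 ± 0.13 in EOL-1 (SE), where SESN2 fell or did not pass. CEBPD rose by 0.85 ± 0.06 with guide 1, 0.83 ± 0.06 with guide 5, 0.76 ± 0.06 with shEZH2 and 0.18 ± 0.05 in EOL-1 (SE).

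**Figure D4:**
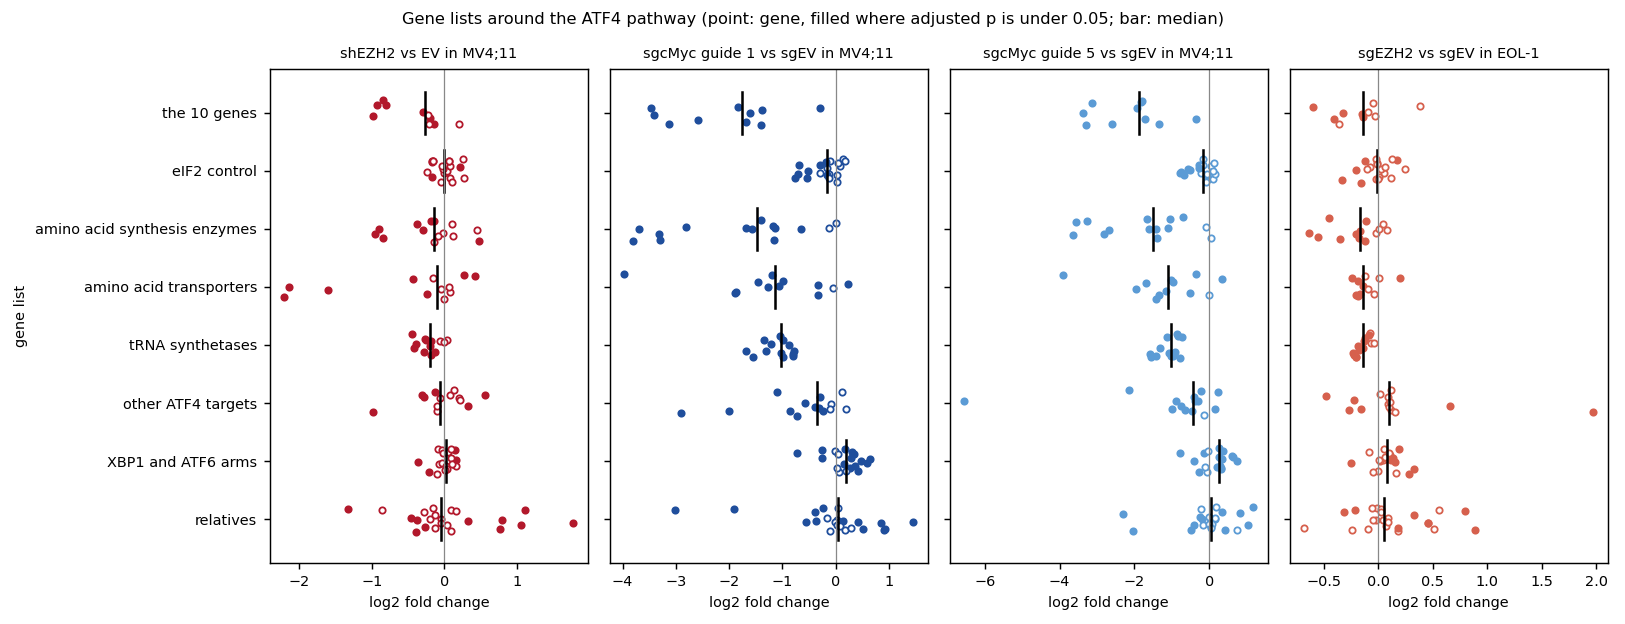
Log2 fold change of every tested gene of the 10 and of the 7 lists in the 4 comparisons with a control, one panel each with its own scale; filled points had an adjusted p under 0.05 and bars are medians. The medians of the 10 genes, of amino acid synthesis, of transporters and of tRNA synthetases lie below -1 with both MYC guides and between -0.3 and 0 with shEZH2 and in EOL-1.

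In the contrast of the MV4;11 controls, sgEV was above EV for 11 of 14 amino acid synthesis genes and 10 of 12 transporter genes. ALDH18A1 and SLC36A4 were lower in sgEV, and all 13 synthetase and export genes were higher. Of all 14433 tested genes, 25.9% were called higher in sgEV and 3357 genes were called lower. PHGDH was higher by 1.32 ± 0.05, ALDH1L2 by 2.80 ± 0.09, SLC38A1 by 2.43 ± 0.11, WARS by 1.31 ± 0.04 and PPP1R15A by 1.08 ± 0.06 on the log2 scale (SE). Against EV, the guides still lowered 12 of 14 synthesis genes and 12 of 13 synthetase genes each. Of all tested genes, 25.3% were lower with guide 1 against EV and 23.1% with guide 5. The medians of these lists were -0.78 and -0.53 for guide 1 and -0.72 and -0.52 for guide 5. PHGDH changed by -2.49 ± 0.06 with guide 1 and -2.24 ± 0.06 with guide 5 against EV, and PSAT1 by -1.81 ± 0.04 and -1.67 ± 0.04 on the log2 scale (SE). WARS was near the EV level, at -0.03 ± 0.04 with guide 1 and -0.11 ± 0.04 with guide 5 (SE, adjusted p = 0.56 and 0.048).

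Genes whose pattern over the 14 libraries was most like that of ATF4 and ASNS were sought among 10070 genes with a mean of at least 5 CPM, each expressed as log2(CPM + 1) minus the mean of its own control. For ATF4 they were TARS (Pearson r = 0.997), WARS (0.997) and MTHFD2 (0.997). For ASNS they were PHGDH (r = 0.999), PCK2 (0.997) and AARS (0.997). PCK2, the mitochondrial PEP carboxykinase, changed by -2.97 ± 0.09 with guide 1, -2.96 ± 0.09 with guide 5, -1.01 ± 0.07 with shEZH2 and -0.14 ± 0.05 in EOL-1 (log2, SE), and the last did not pass (adjusted p = 0.065). Between ATF4 and ASNS r was 0.994, and between ATF4 and CEBPG, the least alike of the 8 genes above 5 CPM, 0.951. These values describe 14 libraries that share controls and lines, 4 of which are sgcMyc libraries with large drops, and no p is given.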

How the data were processed

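Each of 3 deposited tables holds one comparison. The values analysed are the authors' estimated counts for each library, fractional in places, under columns headed Raw per the file headers. The authors' log2 values for each library stand beside them, made by a step the sources used here do not give. A deposited mean signal per gene (baseMean) was not used. RSEM, DESeq and the build hg19 are named in the submitters' processing notes. Columns were matched to samples by inference from target, guide and replicate number. Strand use in counting is not given in the sources used here, so overlapping genes cannot be separated, and the estimated counts of ATF4, ATF5 and DDIT3 were not whole in at least 13 of 14 libraries (tolerance 0.01), as RSEM gives where reads are divided between loci.

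Counts were rounded, filtered with filterByExpr, scaled by TMM and tested with the quasi-likelihood F test of edgeR 4.0.16 (R 4.3.3), robust, two-sided, with Benjamini-Hochberg adjustment over all genes tested and a threshold of 0.05. SE was taken from the log2 fold change and its F value (absolute change over root F). Both MYC guides and sgEV entered one fit. Contrasts between tables came from joint fits, which assume that the tables were made alike. The biological coefficient of variation was 0.0352, 0.0422 and 0.0257 for the shEZH2, sgcMyc and EOL-1 tables. The 56 spike-in rows of the MV4;11 tables stayed out of library sizes. Alternatives were DESeq2 1.42.0, its size factors, limma 3.58.1 on the log2 values of the authors, other filters, a fit that is not robust, each guide alone with sgEV, spike-in scaling, a replicate block and each library left out. Spike-in scaling was run for the MV4;11 tables and their joint fit, since the EOL-1 table has no spike-in rows. The limma fit was run for each table alone and not for joint fits. Adjusted p-values are from edgeR unless another tool is named. The scripts were tested on simulated data.

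Named genes are the 10 genes, EZH2 and MYC, up to 4 genes per list and comparison with the smallest p among those called and, where 5 or fewer were called, all of them, and the 3 genes most like ATF4 and ASNS. Other listed genes named beside them (such as JDP2, SESN1, SESN3 and CEBPD in comparisons where others ranked higher, PHGDH, MTHFD2 and EIF4EBP1) were chosen after their values were seen. The 10 genes and the lists were chosen with earlier results of these data known. Sequences are from RefSeq, and no coordinates of hg19 were used.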

Additional observations from a re-analysis of the deposited data

Results flagged for a closer look

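The effect of EZH2 loss differed between the hairpin in MV4;11 and the guide in EOL-1 for 2 of the 10 genes. This was a test of the difference itself, in which 26.5% of all 13543 tested genes differed. Line, reagent and depth of depletion cannot be told apart in it. For ASNS the change in MV4;11 minus that in EOL-1 was -0.76 on the log2 scale, and for TRIB3 it was -0.43. ASNS fell to 52.7% of EV with shEZH2 and to 89.3% of sgEV with sgEZH2, and TRIB3 to 55.7% and 75.0% in the same order. The difference for ASNS lay between -0.82 and -0.73 with any one library left out, while that for TRIB3 passed the test in 1 of 8 such fits and not with DESeq2 (adjusted p = 0.30).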

How the results depend on the processing

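Against main counts of 3758, 4488, 4354, 3738, 3593, 4239 and 4290 genes called, DESeq2 called 1844 (shEZH2), 2625 (guide 1), 2548 (guide 5), 1870 (EOL-1), 2041 (MV4;11 minus EOL-1), 2351 (shEZH2 minus guide 1) and 2373 (shEZH2 minus guide 5), and of the 10 genes 3, 10, 10, 2, 1, 7 and 8. Spike-in scaling called 2212 genes and 4 of the 10 with shEZH2, and 1 gene and 0 of the 10 between the guides, where the main fit of edgeR called 57 and 1, the replicate block 129, and ATF5 was the one of the 10. With EV as control, chosen after seeing the data, 7495 genes and 6 of the 10 were called with guide 1 and 6948 and 5 with guide 5, and 6 of the 10 with each under spike-in scaling too. Against EV the log2 fold change changed sign with guide 1 for ATF3 (0.44), ATF5 (1.33), CEBPG (0.41) and SESN2 (0.22), and with guide 5 for ATF3 (0.49), ATF5 (1.01), CEBPG (0.36) and SESN2 (0.11). With spike-in scaling as well, these were ATF3 (0.56), ATF5 (1.43), CEBPG (0.52), SESN2 (0.33) and DDIT3 (0.028) with guide 1 and ATF3 (0.67), ATF5 (1.18), CEBPG (0.52) and SESN2 (0.28) with guide 5. Between the guides, spike-in scaling turned CEBPG (0.0091) and TRIB3 (0.037). The cause of these moves was not tested.

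With 1 library left out, where the lone sample of a group is assumed to vary like the others, 2476 to 4272 genes and 4 to 6 of the 10 were called with shEZH2, 2477 to 5758 genes with guide 1, 2360 to 5076 with guide 5, 3 to 5 of the 10 in EOL-1, 9 to 872 genes and 0 to 1 of the 10 between the guides, and 1 to 2 of the 10 between the lines. The guide difference then ran from -0.051 to 0.071 for ATF4, -0.22 to 0.38 for ATF3, -0.061 to 0.090 for DDIT4, -0.17 to 0.12 for TRIB3 and -0.084 to 0.29 for CHAC1. All 10 genes stayed called lower with both guides against sgEV, and higher in sgEV than in EV, with any library left out. The labels do not say that replicate numbers mark shared cultures, and with 2 pairs a comparison the correlations of deviations, from -0.0365 to 0.262, do not settle it. The replicate block called 4710 genes with shEZH2, 4944 and 4840 with the guides and 3776 in EOL-1, with 7, 10, 10 and 5 of the 10. It changed the call of ATF4 between the lines (adjusted p = 0.029). With 2 libraries a group, DDIT3, ATF3 and CHAC1 had few reads and SE of 0.10 to 0.27 on the log2 scale in the comparisons with a control.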
